A study of Mus musculus with 9 samples.

Results

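Resident Kupffer cell markers are transcripts that set the long-lived macrophages of the liver apart from other liver cells. The 8 genes described here are Clec4f, Cd207, Vsig4, Cd5l, Cd163, Marco, Timd4 and Folr2. They were taken by gene symbol, from a list chosen with earlier results of these data known. They are 8 of the 55253 symbols in the table of liver RNA, and all 8 were among the 14759 genes that averaged 1 CPM or more and were tested. CPM is a gene's scaled share of the reads of its library, here after TMM scaling, which adjusts libraries for differences in composition. Liver RNA came from male C57Bl/6J mice, aged 10 weeks at the start. A group of 5 mice was kept for 23 weeks on a diet labelled WD and given sweetened water with 10% alcohol to drink, and is called WD+alcohol here. The 4 control mice ate chow and drank tap water. Diet, alcohol and sweetening came together, so their shares in any difference cannot be told apart. Each library was taken as 1 mouse.

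Kupffer cells sit inside the sinusoids, where they take up bacteria, cell debris and ageing red blood cells from the portal and arterial blood. Most of them are seeded before birth and renew themselves in place. When they are lost, monocytes from the blood can settle in the liver and turn on many Kupffer cell genes, and Timd4 is known as a gene that such newcomers gain late. The markers therefore include genes held broadly by Kupffer cells and genes used to tell cells of different ages or origins.

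Libraries held between 3635860 reads in genes (WD+alcohol 1) and 6643645 (WD+alcohol 4), so that 1 read was worth 0.152 to 0.270 CPM. The groups lay apart on the first principal component, which held 28.9% of the variance, and WD+alcohol 1 lay furthest out. As a check on the tissue label, albumin, Alb, the main product of hepatocytes, was at 14342 to 42089 CPM in the 9 libraries. In bulk liver RNA, fewer cells of a type and less RNA per cell cannot be told apart. The libraries were made from the 3′ ends of transcripts, so levels were compared between genes without dividing by transcript length.

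Of the 8 markers, 5 rose in WD+alcohol liver, namely Cd5l, Folr2, Cd207, Vsig4 and Clec4f, and 0 fell. Timd4, Cd163 and Marco were not called in either direction. Calls were made with limma-trend on log2(CPM + 1), two-sided, at a Benjamini-Hochberg adjusted p under 0.05 over all 14759 tested genes. Over all tested genes, 1.61% were called higher and 0.678% lower by the same rule. Beside the count of 0 lower, 0 markers had an unadjusted p under 0.05 in that direction, and edgeR and DESeq2 also called 0 lower. The 5 markers that rose were also those whose libraries did not overlap between the groups, which held in the upward direction for 3.34% of tested genes. The median log2 fold change of the 8 markers was 1.17, against -0.00077 for all tested genes.

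**Figure D1:**
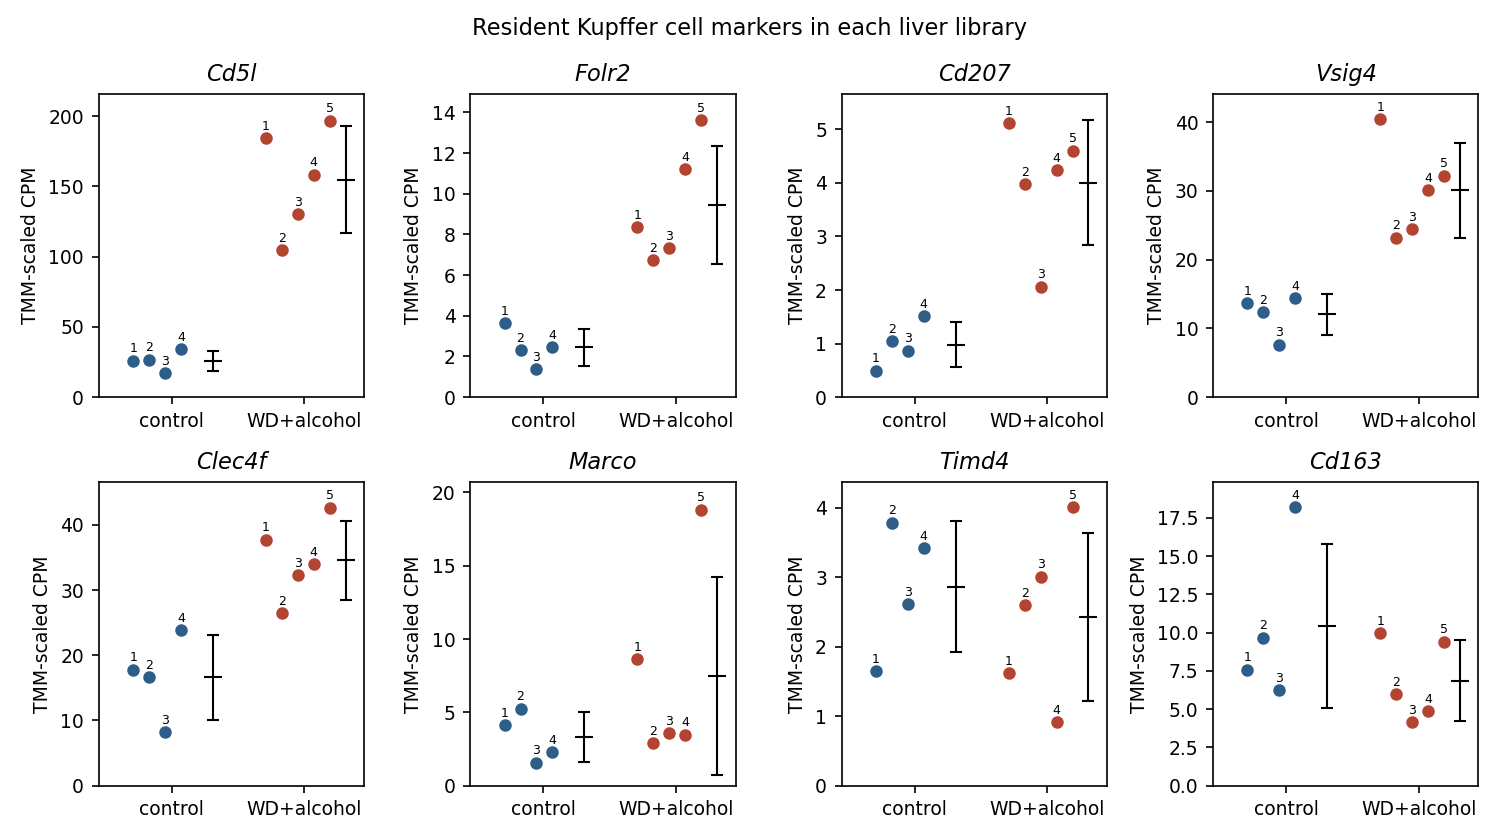
CPM of each marker (vertical axes, 1 panel per gene) in the 5 WD+alcohol and 4 control libraries, with each point numbered by its replicate and bars at the mean ± SD. The groups stand apart for Clec4f, Cd207, Vsig4, Cd5l and Folr2 and overlap for Timd4, Cd163 and Marco.

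The upstream sequences of 4 of the markers are shown: Clec4f and Cd5l, which rose, and Timd4 and Cd163, which did not. Each is the 250 bases before the transcription start, 5′ to 3′ on the gene's own strand, as RefSeq gives that start on GRCm38.p6. The windows are chr6:83656117-83656366 on the minus strand for Clec4f, chr3:87357631-87357880 on the plus strand for Cd5l, chr11:46810549-46810798 on the plus strand for Timd4 and chr6:124304401-124304650 on the plus strand for Cd163. Capitals mark matches, on either strand, to 3 short motifs of factors known from macrophages. These are GAGGAA (PU.1 and related ETS factors), AGGTCA (the core that nuclear receptors such as LXR bind) and TGCTGA (MAF factors).
Clec4f: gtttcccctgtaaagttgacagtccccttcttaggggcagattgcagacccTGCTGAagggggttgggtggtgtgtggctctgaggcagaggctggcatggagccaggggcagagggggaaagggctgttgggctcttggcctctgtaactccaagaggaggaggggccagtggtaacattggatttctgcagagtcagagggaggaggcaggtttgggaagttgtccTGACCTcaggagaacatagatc
Cd5l: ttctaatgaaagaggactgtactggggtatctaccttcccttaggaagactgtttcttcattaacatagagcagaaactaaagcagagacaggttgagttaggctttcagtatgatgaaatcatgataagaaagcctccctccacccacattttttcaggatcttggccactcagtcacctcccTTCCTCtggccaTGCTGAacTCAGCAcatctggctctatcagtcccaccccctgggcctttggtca
Timd4: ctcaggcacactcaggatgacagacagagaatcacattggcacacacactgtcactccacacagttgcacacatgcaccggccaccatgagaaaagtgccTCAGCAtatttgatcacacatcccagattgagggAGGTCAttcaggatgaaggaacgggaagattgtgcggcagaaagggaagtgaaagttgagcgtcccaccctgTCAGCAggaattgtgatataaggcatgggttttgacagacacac
Cd163: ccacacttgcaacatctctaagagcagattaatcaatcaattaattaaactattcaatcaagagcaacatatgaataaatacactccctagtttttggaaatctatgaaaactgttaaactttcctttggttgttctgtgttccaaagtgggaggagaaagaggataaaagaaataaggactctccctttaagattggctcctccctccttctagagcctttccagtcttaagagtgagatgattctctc

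Counting back from the start, with -1 as the last base before it, Clec4f had TGCTGA at -199 and AGGTCA on the opposite strand at -22. Cd5l had GAGGAA on the opposite strand at -66, and the MAF motif on both strands at -54 and -46. Timd4 had AGGTCA at -116 and TGCTGA on the opposite strand at -150 and -44. None of the 3 motifs was found in the Cd163 window. Among the other markers, Vsig4, Marco and Cd207 held GAGGAA and neither of the others, and both RefSeq windows of Folr2 held TGCTGA alone. All 8 markers matched a window, and no pair of the motifs overlapped in the printed sequences. Of 32851 windows of the same 250 bases in the table, 23.3% held GAGGAA, 14% AGGTCA and 16.1% TGCTGA, so single matches are common. A match is a description of these letters, and matches were found in markers that rose and in Timd4, which did not.

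The C-type lectins Clec4f and Cd207 both rose. Clec4f, a galactose-binding receptor found in the mouse almost only on Kupffer cells, stood at 17.8, 16.6, 8.17 and 23.9 CPM in controls 1 to 4 and at 37.7, 26.4, 32.3, 33.9 and 42.6 CPM in WD+alcohol 1 to 5. Every WD+alcohol library lay above every control, with the closest pair at 26.4 and 23.9 CPM. Mean Clec4f was 34.6 ± 6.06 CPM (SD, n = 5) against 16.6 ± 6.47 (SD, n = 4), and its log2 fold change was 1.09 ± 0.23 (SE, limma-trend adjusted p = 0.0239). Its call was lost when WD+alcohol 1 (adjusted p = 0.0553) or WD+alcohol 5 (adjusted p = 0.0774) was left out of the limma-trend fit, within a range of 0.000788 to 0.1002 over its 21 alternatives.

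Cd207 encodes langerin, a mannose-binding lectin best known from Langerhans cells of the skin. It was the least abundant marker in the controls, at 0.494, 1.05, 0.869 and 1.52 CPM, from only 3 to 8 reads per library. In WD+alcohol 1 to 5 it reached 5.12, 3.97, 2.065, 4.24 and 4.60 CPM, from 11 to 28 reads. WD+alcohol 3 lay closest to the controls and still above the highest of them. Mean Cd207 rose from 0.982 ± 0.424 (SD, n = 4) to 4.00 ± 1.16 CPM (SD, n = 5), with a log2 fold change of 1.32 ± 0.24 (SE, limma-trend adjusted p = 0.0105). Because 1 CPM was added before the log, this fold change understates the ratio of the means, which was 4.07.

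Clec4f and Cd207 are direct neighbours among protein-coding genes of chromosome 6. Of the genes on their outer sides, Stambp had a log2 fold change of 0.03 (limma-trend adjusted p = 0.967), and Vax2 had no reads. Clec4f exceeded Cd207 by 2.85 ± 0.37 log2 units in WD+alcohol and 3.09 ± 0.58 in controls (SD), and this difference did not change between the groups by more than their spread (exact permutation test, two-sided, p = 0.492, adjusted p = 0.527 over 28 pairs).

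Vsig4 encodes the complement receptor CRIg, with which Kupffer cells catch bacteria coated with C3 fragments. It stood at 13.7, 12.4, 7.65 and 14.4 CPM in controls 1 to 4 and at 40.4, 23.2, 24.4, 30.15 and 32.2 CPM in WD+alcohol 1 to 5. No library of one group reached into the range of the other. Mean Vsig4 was 30.1 ± 6.91 (SD, n = 5) against 12.0 ± 3.04 CPM (SD, n = 4), a log2 fold change of 1.26 ± 0.19 (SE, limma-trend adjusted p = 0.00274). Its response was within 0.18 log2 units of that of Clec4f, and the pair did not differ beyond the spread (exact permutation test, two-sided, p = 0.333, adjusted p = 0.424).

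Folr2, the folate receptor beta of tissue macrophages, was at 3.625, 2.31, 1.39 and 2.46 CPM in controls 1 to 4 and at 8.355, 6.72, 7.32, 11.2 and 13.6 CPM in WD+alcohol 1 to 5. All 5 WD+alcohol libraries were above all controls, and WD+alcohol 5 was highest. Its mean went from 2.45 ± 0.917 (SD, n = 4) to 9.44 ± 2.90 CPM (SD, n = 5), and its log2 fold change was 1.60 ± 0.23 (SE, limma-trend adjusted p = 0.00239). The annotation places 2 transcripts on the opposite strand within Folr2, the antisense RNA Gm10602 and the pseudogene Gm45319, which averaged 0.132 and 1.3 CPM. No source used here says whether counting used the strand, so a part of the Folr2 reads could belong to them or the reverse.

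Of the scavenger receptor proteins with cysteine-rich domains, Cd5l rose, and Cd163 and Marco were not called. Cd5l, also called AIM, is a protein that macrophages secrete into the blood and a known target of the nuclear receptor LXR. It was at 26.0, 26.7, 16.9 and 34.3 CPM in controls 1 to 4 and at 184, 104.5, 130.1, 158 and 197 CPM in WD+alcohol 1 to 5. The lowest WD+alcohol library thus lay far above the highest control. Mean Cd5l rose from 26.0 ± 7.14 (SD, n = 4) to 155 ± 38.0 CPM (SD, n = 5), which was 5.96 times the control mean. Its log2 fold change of 2.53 ± 0.20 (SE, limma-trend adjusted p = 3.03e-05) was the largest of the 8.

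Cd163, the receptor that clears haemoglobin bound to haptoglobin, was at 7.58, 9.66, 6.26 and 18.2 CPM in controls 1 to 4. In WD+alcohol 1 to 5 it was at 9.97, 5.96, 4.13, 4.85 and 9.41 CPM. WD+alcohol 1 and 5 lay inside the control range, while the other 3 lay below the lowest control. Means were 6.86 ± 2.67 (SD, n = 5) and 10.4 ± 5.36 CPM (SD, n = 4), and the log2 fold change of -0.50 ± 0.29 (SE, 95% interval -1.13 to 0.13) was not called (limma-trend adjusted p = 0.542). Control 4 stood well above the other 3 controls, and without it the log2 fold change was -0.22.

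Marco, a class A scavenger receptor that binds bacteria and particles, was the marker that varied most between WD+alcohol libraries. Controls 1 to 4 held 4.12, 5.25, 1.56 and 2.27 CPM, and WD+alcohol 1 to 5 held 8.625, 2.90, 3.57, 3.485 and 18.8 CPM. Only WD+alcohol 1 and WD+alcohol 5 exceeded the highest control. The coefficient of variation was 90.2% in WD+alcohol and 51.1% in controls. The log2 fold change of 0.76 ± 0.44 (SE, 95% interval -0.18 to 1.70) was not called (limma-trend adjusted p = 0.532) and stood at 0.38 without WD+alcohol 5.

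Timd4 encodes TIM4, a receptor for phosphatidylserine on dying cells. Controls 1 to 4 held 1.65, 3.78, 2.61 and 3.41 CPM, and WD+alcohol 1 to 5 held 1.62, 2.60, 3.003, 0.909 and 4.00 CPM. The ranges overlapped almost fully, and WD+alcohol 5 held both the highest Timd4 and the highest Clec4f, Cd5l, Marco and Folr2 of all 9 libraries. Means were 2.43 ± 1.20 (SD, n = 5) and 2.86 ± 0.946 CPM (SD, n = 4), with a log2 fold change of -0.22 ± 0.29 (SE, limma-trend adjusted p = 0.843). Timd4 rested on 6 to 20 reads per WD+alcohol library and 10 to 18 per control. In WD+alcohol 4, its 6 reads gave 0.909 CPM with an exact Poisson 95% interval of 0.334 to 1.98, which covers counting error only. The 95% interval of its log2 fold change, -0.84 to 0.41, ended below the lower bounds for Clec4f (0.59), Cd207 (0.79), Vsig4 (0.85), Folr2 (1.09) and Cd5l (2.10).

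**Figure D2:**
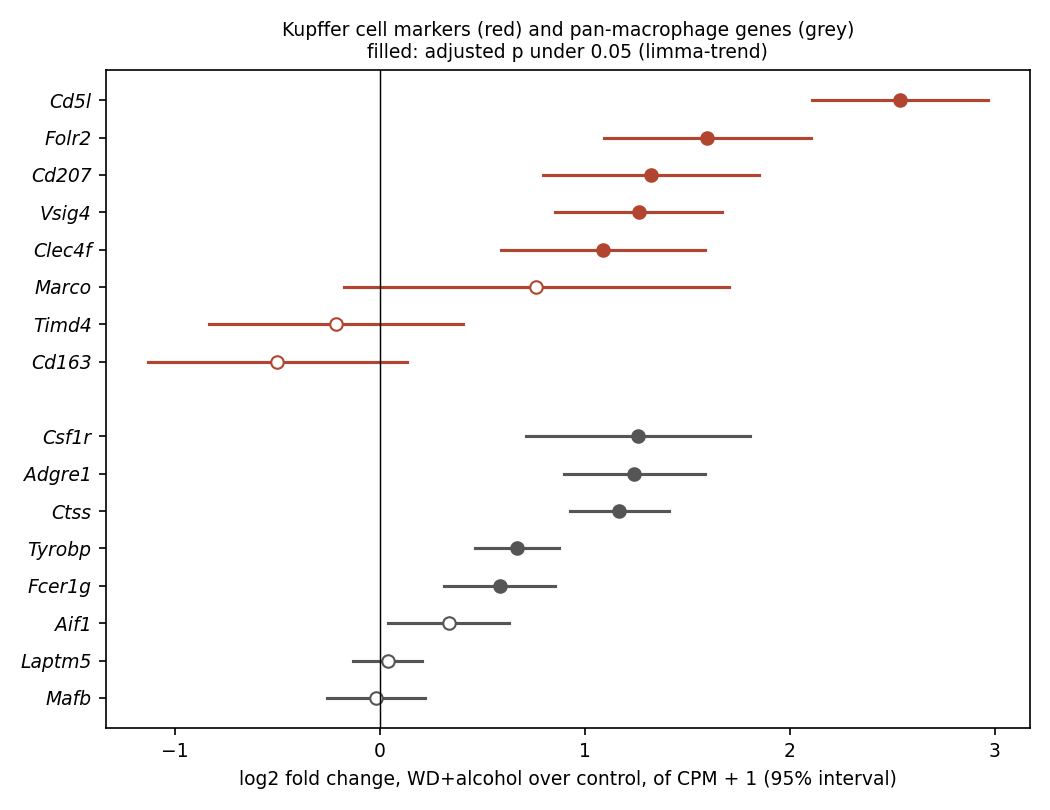
Log2 fold change of WD+alcohol over control, with its 95% interval from limma-trend, for the 8 markers (red) and 8 genes shared by macrophages of many tissues (grey), where filled points had an adjusted p under 0.05. Cd5l lies furthest to the right at 2.53, and the intervals of Marco, Timd4 and Cd163 include 0.

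The markers changed rank by level. In controls the order by mean CPM was Cd5l (26.0), Clec4f (16.6), Vsig4 (12.0), Cd163 (10.4), Marco (3.30), Timd4 (2.86), Folr2 (2.45) and Cd207 (0.982). Of the neighbours in that order, only Cd163 and Marco had ranges over libraries that did not overlap. In WD+alcohol the order was Cd5l (155), Clec4f (34.6), Vsig4 (30.1), Folr2 (9.44), Marco (7.48), Cd163 (6.86), Cd207 (4.00) and Timd4 (2.43). Here Cd5l was apart from Clec4f and Vsig4 from Folr2, and the ranges of the remaining neighbours overlapped. Cd163 stood between Vsig4 and Marco in controls and between Marco and Cd207 in WD+alcohol.

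Shares of the summed CPM of the 8 markers put the same change within each library. The sum was 45.4 to 100.4 CPM in controls and 176 to 322 in WD+alcohol. Cd5l made up 35.1 ± 1.40% of it in controls and 61.9 ± 1.83% in WD+alcohol (SD, n = 4 and 5). Cd163 made up 13.6 ± 3.36% and 2.73 ± 0.706%, and Timd4 4.05 ± 1.57% and 1.02 ± 0.522%. The shares of a library add to 100%, so a share can fall while the CPM of the gene rises. Clec4f stood at 21.7 ± 2.72% in controls and 14.1 ± 1.20% in WD+alcohol although its CPM rose. Mean shares of Vsig4 and Marco were also lower in WD+alcohol. Those of Folr2 (3.33 ± 1.04% in controls, 3.79 ± 0.662% in WD+alcohol) and Cd207 (1.36 ± 0.523% and 1.63 ± 0.460%) were not.

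**Figure D3:**
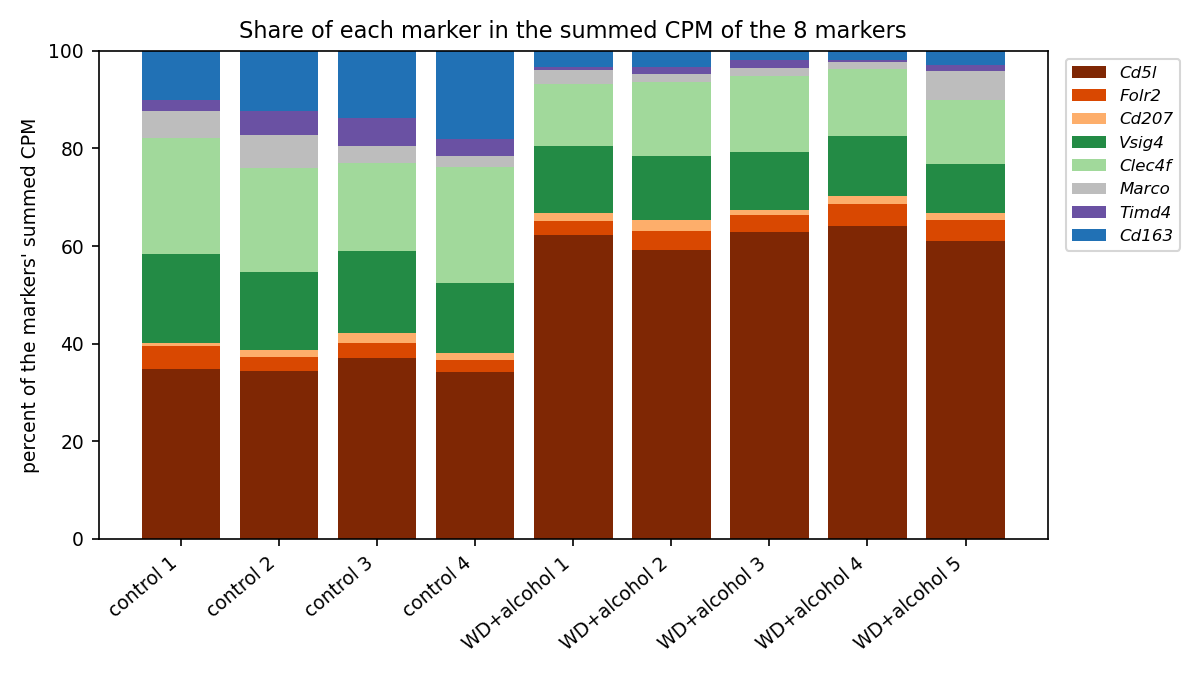
Share of each marker, in percent of the summed CPM of the 8 markers, stacked for each of the 9 libraries. Cd5l fills about 35.1% of the control bars and 61.9% of the WD+alcohol bars on average, and the Cd163 share is 13.6% and 2.73%.

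Whether markers split from each other was tested on the difference of log2(CPM + 1) between both genes of a pair within each library. This cancels any factor that scales a whole library, apart from the effect of the added 1 CPM. Each of the 28 pairs was compared between groups with an exact two-sided permutation test, and p-values were adjusted over the 28 pairs. With 5 libraries against 4, the smallest p such a test can give is 0.0159. Of the 28 pairs, 14 reached that p, with an adjusted p of 0.0317 each. A pair alone at that p would not have passed adjustment over the 28 pairs. The pairs also share genes and libraries, so these adjusted p-values are not independent of each other.

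Timd4 and Cd163 split from all 5 markers that rose: all 10 of these pairs had an adjusted p of 0.0317 (exact permutation test), with differences of 1.30 to 3.04 log2 units. Against Clec4f, the most specific of the Kupffer cell markers, the response of Timd4 was 1.30 log2 units lower and that of Cd163 was 1.59 lower. With 0.25 in place of 1 CPM added before the log, the difference between Clec4f and Timd4 was 1.42 and missed the threshold (exact permutation adjusted p = 0.0556). Within libraries, log2 Cd163 minus log2 Clec4f was -1.13, -0.72, -0.34 and -0.37 in controls 1 to 4 and -1.82, -1.98, -2.70, -2.58 and -2.07 in WD+alcohol 1 to 5. These values do not overlap between the groups, although those of Cd163 itself do. Timd4 and Cd163 did not split from each other beyond the spread (difference 0.29, exact permutation p = 0.429, adjusted p = 0.50).

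Cd5l split from the rest in the opposite direction. Its response exceeded that of Clec4f by 1.45, of Vsig4 by 1.27, of Cd207 by 1.21 and of Folr2 by 0.94 log2 units, and all 4 pairs had an adjusted p of 0.0317 (exact permutation test). Among Clec4f, Vsig4, Folr2 and Cd207, 0 of 6 pairs passed, with differences of 0.06 to 0.51 log2 units and adjusted p-values of 0.131 to 0.825 (exact permutation test). Adding 0.25 CPM instead, Cd5l and Cd207 differed by 0.77 and no longer passed (exact permutation adjusted p = 0.0988), while Clec4f and Folr2 did pass (difference -0.73, exact permutation adjusted p = 0.0342). Marco passed in 0 of its 7 pairs, where the smallest adjusted p was 0.0593 against Cd5l (exact permutation test), a pair that did pass with 5 CPM added (exact permutation adjusted p = 0.0296). A p that misses the threshold does not show that such markers respond alike.

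**Figure D4:**
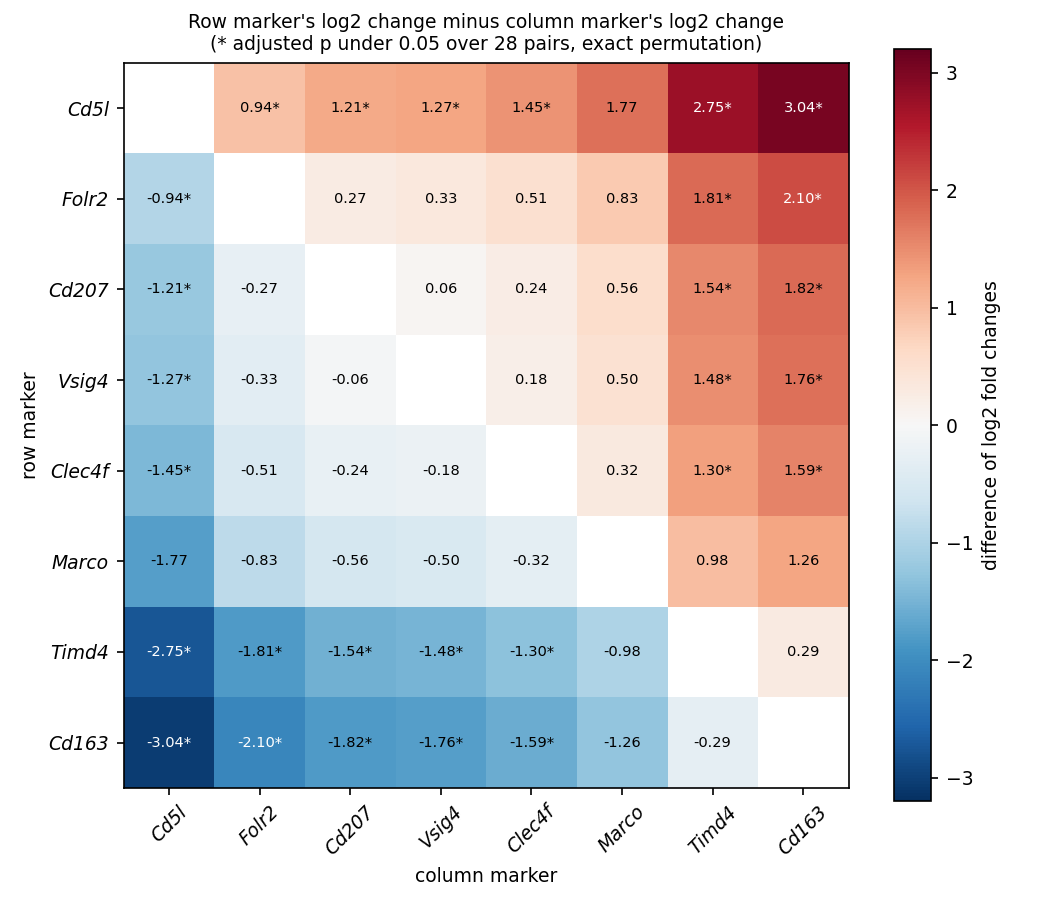
Difference between the log2 fold changes of the row gene and the column gene for all pairs of the 8 markers, coloured by size in log2 units, with stars at an adjusted p under 0.05. Timd4 and Cd163 differ from each of the 5 markers that rose, Cd5l differs from the other 4 of these, and Marco carries 0 stars.

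The markers were also set against macrophage genes at large. Of 8 genes shared by macrophages of many tissues, 5 rose (Ctss, Adgre1, Tyrobp, Csf1r and Fcer1g), 0 fell, and the median log2 fold change was 0.63. Adgre1, the F4/80 antigen, averaged 21.7 ± 4.92 against 8.50 ± 1.26 CPM (SD, n = 5 and 4), a log2 fold change of 1.24 (limma-trend adjusted p = 0.000787). Ctss, the protease cathepsin S, averaged 117 ± 18.9 against 51.2 ± 4.03 CPM (limma-trend adjusted p = 9.04e-05). Csf1r, the receptor for the growth factors on which macrophages depend, averaged 94.9 ± 24.1 against 40.8 ± 15.7 CPM (limma-trend adjusted p = 0.0181). Its call was lost without WD+alcohol 5 (adjusted p = 0.0584) or control 1 (adjusted p = 0.0518), within a range of 0.00014 to 0.130 over 21 alternatives.

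Relative to the mean log2 level of these 8 genes in the same library, the responses of Cd5l (a difference of 1.88 log2 units), Folr2 (0.94), Vsig4 (0.60) and Cd163 (-1.16) stood apart, each with an adjusted p of 0.0317 over 8 comparisons (exact permutation test, two-sided). Clec4f did not stand apart from them (0.43, exact permutation adjusted p = 0.127). Neither did Marco (0.10, exact permutation adjusted p = 0.873). Cd207 (0.66, exact permutation adjusted p = 0.0508) and Timd4 (-0.87, exact permutation adjusted p = 0.0635) missed the threshold. These results depended on the CPM added before the log. With 5 CPM, Folr2 stood at 0.35 and no longer passed (exact permutation adjusted p = 0.0762), whereas Timd4 did (-0.68, exact permutation adjusted p = 0.0317). With 0.25 CPM, Cd207 passed (1.12, exact permutation adjusted p = 0.0254).

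Of 23 other genes known from Kupffer cells, 21 were tested, 8 rose, 0 fell and the rest were not called, with a median log2 fold change of 0.55. The 3 chains of complement C1q were among them. C1qc averaged 75.5 ± 17.9 against 20.1 ± 4.41 CPM (SD, n = 5 and 4; limma-trend adjusted p = 7.97e-05) and C1qa 112.9 ± 31.7 against 33.4 ± 8.54 CPM (limma-trend adjusted p = 0.000431). Fabp7, C1qb, Il18bp, Abcc3, Sirpa and Sdc3 also rose. Of the transcription regulators of Kupffer cell identity, Nr1h3, which encodes LXR alpha, was at 42.9 ± 6.87 against 38.1 ± 7.57 CPM (limma-trend adjusted p = 0.725). Id3 was at 274 ± 28.2 against 265 ± 38.0 CPM (limma-trend adjusted p = 0.897), and both are also expressed outside macrophages. Spic, a regulator of iron-recycling macrophages, stayed below the level for testing, at 0 to 1.06 CPM.

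Genes that share a function with the markers that did not rise were examined for the same split. Of 12 scavenger receptors 11 were tested, 3 rose (Cd36, Cd68 and Msr1) and 0 fell, with a median of 0.32. Cd36, a fatty acid and lipoprotein receptor also present on hepatocytes and endothelium, averaged 73.6 ± 13.5 against 23.1 ± 3.33 CPM (SD; limma-trend adjusted p = 4.79e-05). Cd68, a lysosomal protein of macrophages, averaged 24.3 ± 3.52 against 11.5 ± 1.03 CPM (limma-trend adjusted p = 0.000616). Of 12 receptors and bridging proteins for phosphatidylserine, the ligand of Timd4, 10 were tested and 3 rose (Mertk, Gas6 and Axl), with 0 lower and a median of 0.30. Mertk, an engulfment receptor, averaged 34.2 ± 3.96 against 21.0 ± 3.35 CPM (limma-trend adjusted p = 0.00852), and its ligand Gas6 29.4 ± 8.18 against 14.2 ± 1.51 CPM (limma-trend adjusted p = 0.0104).

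In the haem and iron list, which holds the pathway of Cd163, 4 of 14 genes rose (Hpx, Hp, Blvrb and Ftl1), 0 fell, and the median was 0.34. Haptoglobin, Hp, whose complex with haemoglobin Cd163 takes up, averaged 1886 ± 397 against 927.5 ± 332 CPM (SD; limma-trend adjusted p = 0.0123). Hemopexin, Hpx, which carries free haem, averaged 5042 ± 875 against 2252 ± 389 CPM (limma-trend adjusted p = 0.000872). Both are mainly made by hepatocytes. Hmox1, the enzyme that breaks haem down, was at 7.86 ± 1.96 against 4.15 ± 1.38 CPM and was not called (limma-trend adjusted p = 0.0921), but was called without WD+alcohol 4 (0.0346), without control 4 (0.0497) and by DESeq2 (0.0458).

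Markers of other cells that the liver samples could hold moved as follows, and their part in the results above was not tested. Of 12 genes of lipid-associated macrophages, which form around fat-laden or dying cells, 7 rose and 0 fell, with a median of 0.73. Their sums were 1170 to 1361 CPM in WD+alcohol and 868 to 963 in controls. These were mostly Ctsd (means of 378 against 274 CPM), Cd63 (279 in both groups) and Lgals3 (190 against 150). Of these, Cd63 and Lgals3 were not called. Gpnmb averaged 31.8 ± 13.2 against 2.11 ± 0.766 CPM (SD; limma-trend adjusted p = 3.03e-05) and Mmp12 14.8 ± 4.76 against 1.39 ± 0.298 CPM (limma-trend adjusted p = 3.03e-05). Trem2 was at 3.36 to 9.97 CPM in WD+alcohol and at 0 to 0.758 in controls. Of 15 genes of monocytes and recruited macrophages, 14 were tested, 2 rose (Fcgr1 and Plac8) and 0 fell, with a median of 0.34. Their sums were 2963 to 3339 CPM in WD+alcohol and 3035 to 3485 in controls, mostly Fn1 and S100a6, which other cells also express. Fcgr1 averaged 5.68 ± 1.40 against 1.45 ± 0.472 CPM (limma-trend adjusted p = 0.00284). Ccr2, the chemokine receptor of inflammatory monocytes, was at 6.48 ± 1.51 against 5.45 ± 1.86 CPM (limma-trend adjusted p = 0.757).

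Plac8 averaged 39.4 ± 7.37 against 24.98 ± 2.23 CPM (SD; limma-trend adjusted p = 0.022), and its call was lost without WD+alcohol 5 (0.0522) or without control 1 (0.0521), 3 (0.0618) or 4 (0.0704). Dendritic cells share Cd207 and several macrophage genes: 11 of 12 of their genes were tested, 0 were called higher or lower by limma-trend, and the median was 0.03. Sums over that list were 1221 to 1360 CPM in WD+alcohol and 1079.5 to 1297 in controls, mostly the widely expressed Cst3 (939 ± 35.6 against 887 ± 73.0 CPM). Peritoneal macrophages, which also carry Timd4, had 6 of 7 genes tested, with a median of 0.40. Sums over that list were 187.5 to 239 CPM in WD+alcohol and 124.6 to 184 in controls. Of the 6 tested, 1 was higher and 0 lower. The 1 gene was Lbp, which hepatocytes secrete, at 97.6 ± 13.3 against 61.0 ± 18.9 CPM (limma-trend adjusted p = 0.048). It was called in 6 of 21 alternatives, and leaving out any library but control 4 ended the call (adjusted p up to 0.1097 in these fits).

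Sinusoidal endothelium shares scavenger receptors with Kupffer cells, and 1 of its 11 genes rose (Fcgr2b), 0 fell, with a median of 0.32 and sums of 154 to 223 CPM against 120.1 to 184. Fcgr2b averaged 30.1 ± 3.83 against 19.0 ± 2.97 CPM (SD; limma-trend adjusted p = 0.0176), and its call was lost without WD+alcohol 5 (0.0577) or control 3 (0.0544). Of 9 stellate cell genes 2 rose, 0 fell, the median was 0.39, and sums were 251 to 365 against 175 to 244 CPM. Dcn averaged 163 ± 29.9 against 93.0 ± 14.3 CPM (limma-trend adjusted p = 0.00588). Lum averaged 9.12 ± 4.25 against 2.77 ± 0.947 CPM (limma-trend adjusted p = 0.0208), and its call was lost without WD+alcohol 5 (0.0616), control 1 (0.0676) or control 3 (0.0647).

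All 9 tested hepatocyte genes had negative log2 fold changes, with a median of -0.49, and 2 fell, Apoa1 and Alb. Their summed CPM was 27249 to 39018 in WD+alcohol and 41738 to 62890 in controls. Alb averaged 18876 ± 3597 against 33497 ± 6566 CPM (SD; limma-trend adjusted p = 0.0491), and leaving out any library except WD+alcohol 3 ended its call (adjusted p up to 0.137). Apoa1 averaged 3436 ± 580 against 5019 ± 382 CPM (limma-trend adjusted p = 0.0407), and its call was lost without any of the controls or WD+alcohol 1, 2 or 5 (adjusted p up to 0.117). Before TMM scaling, CPM is a share of each library, so a lower share of these abundant transcripts leaves more of it for others. TMM scaling adjusts libraries for such differences in composition. Any part of this left in the marker levels was not tested, and the pair differences above do not depend on it beyond the added 1 CPM.

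Genes with profiles most like the markers were found by the root mean square distance between log2(CPM + 1) profiles over the 9 libraries, each centred on its mean, among genes averaging 5 CPM or more. Nearest to Clec4f were Csf1r (0.20), Vsig4 (0.22) and the sterol exporter Abcg1 (0.23), beside a root mean square of 0.67 for the Clec4f profile itself. Abcg1 averaged 11.2 ± 2.55 against 4.30 ± 1.17 CPM (SD, n = 5 and 4; limma-trend adjusted p = 0.00449). Nearest to Timd4 were Dhx34, B9d2 and Olig1 (0.25 each), against 0.44 for its own profile. Nearest to Cd163 were Alkbh2 (0.18), Slc25a47 (0.29) and Rad51ap1 (0.32), against 0.54 for its own. Of these 9 nearest genes, Csf1r, Vsig4 and Abcg1 were called, and the other 6, at adjusted p-values of 0.214 to 0.945 in limma-trend, were not. Because genes were picked by likeness, over the same 9 libraries, to a called marker or to uncalled ones, these calls follow from the choice. They add no evidence on the markers.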

How the data were processed

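Liver RNA of 9 mice was extracted by Trizol and chloroform, and libraries came from the Collibri 3′ mRNA kit, as the labels' protocols state. Per the submitters' processing notes, Trim Galore 0.6.0, cutadapt 1.18, STAR, HTSeq 0.11.0, edgeR 3.28.1 and R 3.6.3 were used with mouse build GRCm39. The STAR version, strand setting and treatment of multimapping reads are not given in the sources used here. The deposited signal is TMM-scaled CPM made by the authors for 55253 symbols. All positive values (100%) were whole multiples of 1 read's worth within a relative tolerance of 1e-06, so that reads were recovered for depth, Poisson intervals and count tests. A count of 3 reads corresponds to 0.455 to 0.809 CPM. The low-count genes are limited most by depth.

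The limma-trend test (limma 3.58.1 in R 4.3.3) took log2(CPM + 1) of the 14759 genes averaging 1 CPM or more, 5 against 4 libraries, at a Benjamini-Hochberg adjusted p under 0.05. Differences within libraries used exact permutation tests (scipy 1.17.1). Alternatives were other pseudocounts (0.25 and 5), filters and scalings, robust and weighted fits, a replicate block, each library left out, edgeR 4.0.16 and DESeq2 1.42.0. The limma-trend and edgeR tests were run on simulated counts first, and DESeq2 was not. The permutation test was checked on made-up values for its smallest p only. The labels do not say more on how libraries relate to mice than the group sizes, so p-values measure the spread between these libraries. Promoter windows come from RefSeq on GRCm38.p6, overlaps from GENCODE M21, and both were joined by symbol only.

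The members and the 17 other gene lists were chosen with earlier results of these data known. Lists share some genes, such as Cd68 and Csf1r. Named genes are the 8 markers, for each list the 2 called genes with the smallest p or, without a call, the most abundant, the 3 profiles nearest to Clec4f, Timd4 and Cd163, and Nr1h3, Id3, Spic, Adgre1, Csf1r, Ccr2, Trem2 and Hmox1 whatever their values. Other genes of a list are named as called or as the source of its sum, and neighbours and overlapping genes by position. Trf is named because the list entry Tf had no match.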

Additional observations from a re-analysis of the deposited data

Results flagged for a closer look

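In 94 groups of libraries examined for a single library far from the others, 1 had one. Fcgr2b, an inhibitory receptor for antibodies, stood at 23.5 CPM in WD+alcohol 2, while the other WD+alcohol libraries reached up to 33.0 CPM. The gap to the next library was 0.728 of the group's range. Chance alone picks out about 1 group in 20. None of the 16 groups of the 8 markers met this limit.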

How the results depend on the processing

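Cd5l, Folr2 and Vsig4 were called higher under all 21 alternatives, and 0 markers were called lower under any. With a replicate block 3 markers rose instead of 5, since Clec4f (adjusted p = 0.1002) and Cd207 (adjusted p = 0.108, limma-trend) were lost. The block fit called 112 genes, against 338 without it. WD+alcohol 5 has no control of its number, so the block also removes its weight, and leaving that library out alone gave 201. The labels do not state that replicate numbers pair the libraries. Deviations of libraries with the same number correlated at -0.00753, -0.311, -0.213 and -0.0148, which cannot settle whether libraries were paired. Clec4f also missed the threshold in the robust limma-trend fit (adjusted p = 0.0814), as did Csf1r (0.130) and Hp (0.0914). On the recovered reads edgeR called 315 genes and DESeq2 545. Leaving out 1 library gave 201 to 387 genes called and 4 to 5 markers called higher.

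With 1 library left out, the smallest permutation p is 0.0286 or 0.0357, so the number of pairs that passed after adjustment was 0 to 0, and that of markers apart from the macrophage genes 0 to 5. Such counts say nothing on stability. With all 9 libraries, pairs that passed numbered 13 to 15 under other settings, and the calls that changed with the added CPM are given beside the results. Differences that were not called also turned sign: Clec4f minus Cd207 (0.33), Vsig4 minus Cd207 (0.46), Vsig4 minus Folr2 (0.10), and Cd207 (-0.0098) and Marco (-0.12) minus the macrophage genes with 5 CPM added, and Vsig4 minus Cd207 (up to 0.14) and Marco minus the macrophage genes (down to -0.22) with 1 library left out. Among single log2 fold changes, the sign turned for Id3 (-7.73e-05 to 0.148 over the libraries left out) and B9d2 (-0.162 to 0.0536), neither of them called. The cause of lost calls was not tested. Scaling all libraries to one total moved the share of called genes that were higher from 70.4% to 77.7% and the median of all genes to 0.05. Depth limits Timd4 and Cd207 most, which at a minimum mean of 5 CPM were not tested.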

Other observations

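Among 13 genes of signals that shape the Kupffer cell niche and of their receptors, 1 rose (Csf1r), 0 fell, and the median log2 fold change was 0.11. Their summed CPM was 310 to 395 in WD+alcohol and 284 to 291 in controls. Csf1r, the receptor already counted among the macrophage genes above, is part of these sums, at 94.9 ± 24.1 against 40.8 ± 15.7 CPM. Lymphoid and granulocyte genes were mostly too low to test. Of 8 B and plasma cell genes 4 were tested (median 0.14) and 2 had no reads, and of 10 T and NK cell genes 4 were tested (median 0.08). Limma-trend called 0 genes in these lists, with Igkc at 199 ± 16.8 against 211 ± 24.8 CPM and Gzmb at 17.0 ± 2.47 against 18.2 ± 2.55 CPM (SD, n = 5 and 4). Of 8 neutrophil genes 3 were tested and 0 called, although all 3 log2 fold changes were positive, with a median of 0.70. S100a9 was at 20.03 ± 3.05 against 12.3 ± 3.86 CPM (limma-trend adjusted p = 0.0886), and it was called without control 4 (0.049) and by DESeq2 (0.0262). Of 6 erythroid genes 5 were tested and 0 called, with a median of 0.64 and Hba-a1 at 675 ± 135 against 573 ± 51.7 CPM.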
